A study of Homo sapiens with 2 samples.

Results

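Peaks of DDX18 in the genes of the cytosolic translation factors are described here. They were measured by iCLIP (crosslinking and immunoprecipitation of RNA at nucleotide resolution). The cells were H9, an established line of human embryonic stem cells, made to express 3XFlag-DDX18 and grown in normal culture over inactivated mouse embryonic fibroblasts. The 2 samples, replicates 1 and 2 of 1 group, share 1 deposited list of significant peaks, and no control sample was used here, so no value per sample, no spread between samples and no depth can be given. Nothing in the labels says whether the replicates were separate cultures. Members were taken by symbol: peaks called in protein-coding genes whose symbols begin with EIF or EEF and a digit, together with ETF1, GSPT1 and PABPC1. Rows whose nearest start site belonged to a SNORD or SNORA gene (C/D box and H/ACA box snoRNAs) were set apart. This left 111 of the 16095 peak positions of the list, in 38 of 73 such genes. The symbol rule also takes in kinases and inhibitors that act on the factors, and they are named as such below.

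Protein synthesis begins when initiation factors (eIFs) bring the initiator tRNA and the small ribosomal subunit to the capped end of an mRNA and scan for a start codon. Elongation factors (eEFs) then deliver aminoacyl-tRNAs and move the ribosome along, and release factors end the chain. Many mRNAs of ribosomal proteins and elongation factors begin with a terminal oligopyrimidine (TOP) tract, a C followed by further C or U, through which growth signals control their translation. DDX18 itself belongs to the DEAD-box RNA helicases, the family that is named after a motif it shares with the initiation factor eIF4A.

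Starts were read for the factor genes with the most or the highest peaks, or with a peak close to the start. The TOP tract was looked for because many elongation factor mRNAs begin with one. Not every window that was read is printed. The sequences come from RefSeq (GRCh38.p14), run from 25 bases before to 25 bases after the annotated start, and are given for genes with 1 annotated start in the table used. Capitals mark the unbroken run of C and T that begins at the first transcribed base. The windows are EEF1A1 at chr6:73521008-73521057 on the minus strand, EEF2 at chr19:3985439-3985488 on the minus strand, EIF2S3 at chrX:24054931-24054980, EIF3F at chr11:7987312-7987361, EIF3K at chr19:38619163-38619212, EIF3M at chr11:32583806-32583855, EIF4B at chr12:53006431-53006480 and EIF3B at chr7:2354802-2354851, the last 6 on the plus strand.
EEF1A1: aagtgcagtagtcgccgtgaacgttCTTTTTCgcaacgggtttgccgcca
EEF2: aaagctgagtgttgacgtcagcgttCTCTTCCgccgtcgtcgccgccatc
EIF2S3: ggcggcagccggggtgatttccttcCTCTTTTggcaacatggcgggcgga
EIF3F: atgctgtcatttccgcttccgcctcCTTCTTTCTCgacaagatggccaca
EIF3K: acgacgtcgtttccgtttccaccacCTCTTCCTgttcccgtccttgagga
EIF3M: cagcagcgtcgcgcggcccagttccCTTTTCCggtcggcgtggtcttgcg
EIF4B: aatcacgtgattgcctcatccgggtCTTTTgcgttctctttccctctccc
EIF3B: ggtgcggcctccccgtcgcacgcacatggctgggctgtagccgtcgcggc

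Of the 11 genes that met this choice, 7 began with a C followed by at least 4 further C or T, and EEF1G, EEF2K, EIF3B and EIF4A3 did not. The windows of EEF1G, EEF2K and EIF4A3 are not printed, so the printed windows overstate the share with a run. The run was 7 bases long in EEF1A1, EEF2, EIF2S3 and EIF3M, 8 in EIF3K, 10 in EIF3F and 5 in EIF4B. The 11 were chosen for their peaks, so this count does not stand for the class. Among factor genes with 1 window, whether or not they had a peak, 11 of 45 began in this way (24.4%, exact 95% binomial interval 12.9 to 39.5), against 541 of 11786 protein-coding genes (4.59%) and 44 of 61 cytosolic ribosomal protein genes (72.1%). Such windows covered 61.6% of the factor genes, 58.8% of protein-coding genes and 67.8% of ribosomal protein genes, so these shares describe the covered genes and are no check of the whole classes. These letters describe the annotated start only.

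A peak was called in 38 of the 73 factor genes, or 52.1% (exact 95% binomial interval 40.0 to 63.9), against 30.6% of all protein-coding genes under the same rule. The list carries no measure of expression, and the protein-coding background includes genes that these cells may not use, so the share was not set against RNA abundance. Initiation factor symbols had a peak in 30 of 56 genes with 85 peaks, and elongation factor symbols in 5 of 14 genes with 14 peaks. ETF1, GSPT1 and PABPC1 all had one, with 12 peaks together. Coverage differed between roles, but most roles hold few genes and no test between them was made. All 4 kinases of eIF2 and 12 of 14 subunit genes of eIF3 were listed, whereas none of the 5 subunit genes of eIF2B (its exchange factor) and none of the 5 methyltransferases of the elongation factors were. A further 5 genes, EIF4A1, EIF4A2, EIF4G2, EIF5 and EEF1B2, had SNORD or SNORA rows only, and 30 genes were not listed at all.

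**Figure D1:**
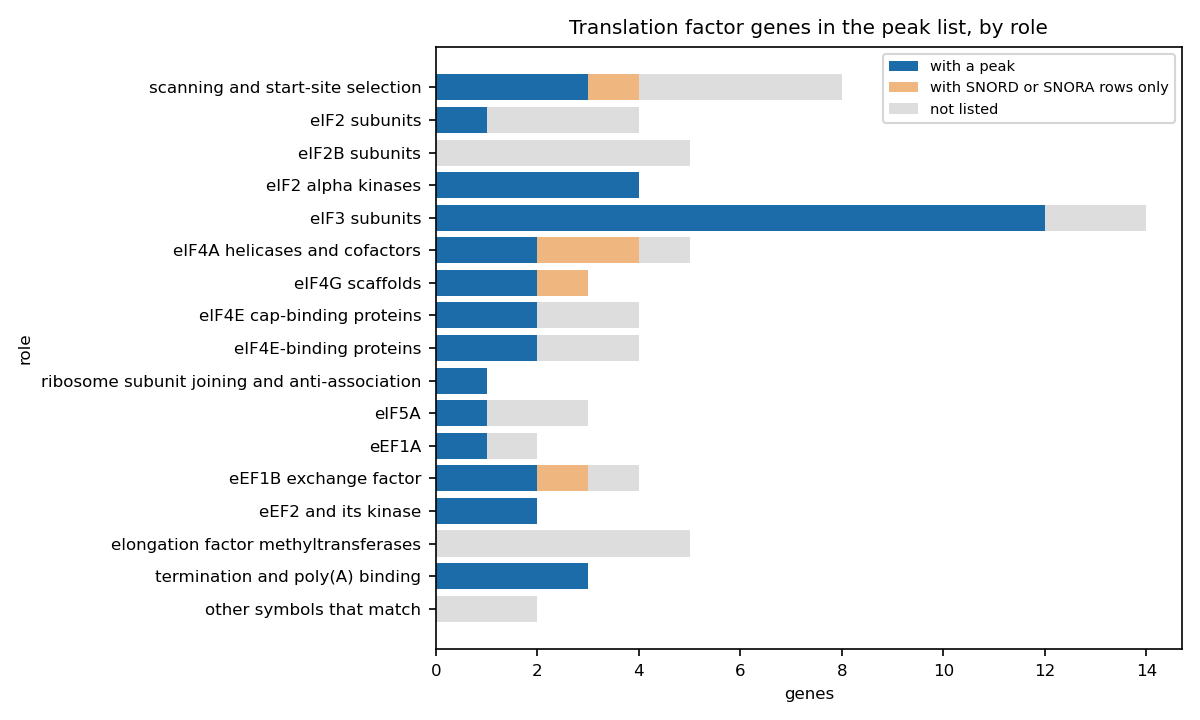
Number of translation factor genes (x axis) in each role (y axis) with at least 1 peak (blue), with SNORD or SNORA rows only (orange) or not listed (grey). The eIF3 bar holds 12 listed genes of 14, while the bars of eIF2B and of the methyltransferases hold 0 of 5 each.

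Factor genes with a peak mostly held a few peaks of modest height, and the medians of number and height were above those of other listed genes. Peak height is the deposited whole number and was scaled neither to depth nor to RNA abundance. Over the 111 peaks its median was 10, with quartiles of 7 and 14 and extremes of 5 and 127, against a median of 8 (quartiles 6 and 12) over 15165 positions in other protein-coding genes. The number of peaks per gene had a median of 2, against 1 in other listed protein-coding genes. A single peak was found in 11 of the 38 genes (28.9%, against 53.4%), 9 genes had 2, 6 had 3, 5 had 4, and 7 genes with 5 or more held 44 of the 111 peaks. The highest peak of a gene had a median of 11, against 7 in 6104 other listed protein-coding genes. It was under 10 in 15 factor genes, at least 10 in 23 and at least 20 in 9. Of all factor peaks 52.3% had a height of 10 or more, against 35.4%, and no test of these differences was made. The 11 peaks of height 32 or more lay in 6 genes and held 38.1% of the summed height of 1661.

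**Figure D2:**
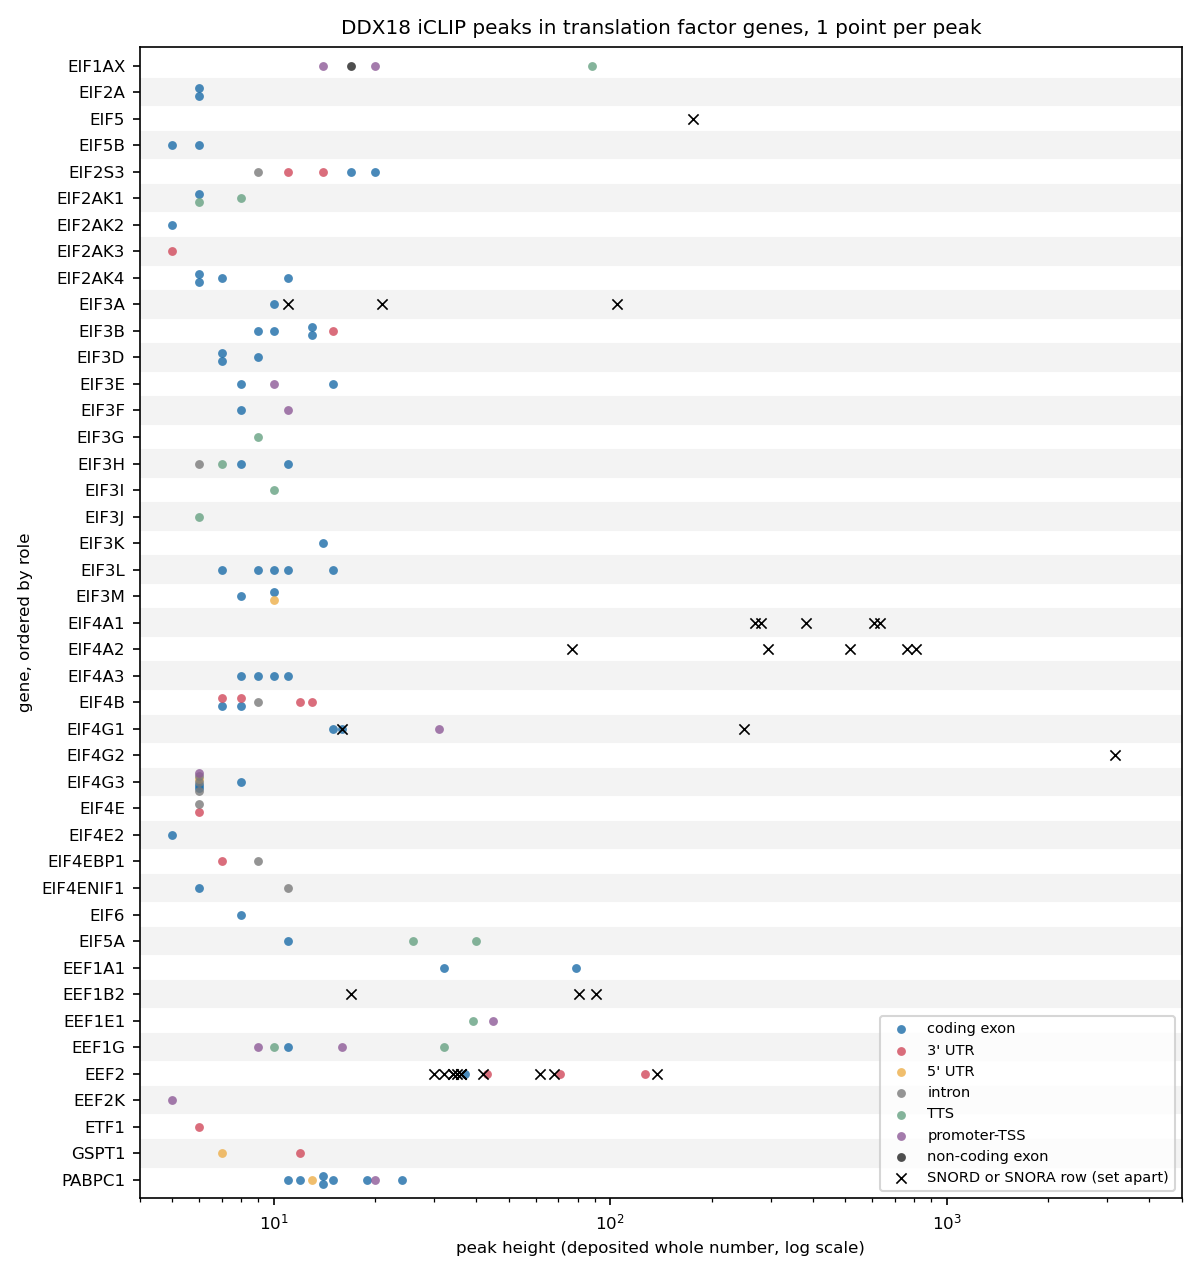
Height of every peak (x axis, deposited whole number, log scale) in each factor gene with at least 1 row (y axis, ordered by role), coloured by the annotated region. Crosses are the 32 SNORD or SNORA rows that were set apart. Peaks of the eIF3 subunits lie between 6 and 15, and the highest coloured point is the 127 of EEF2.

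Among the factors of scanning and start-site selection, 3 of 8 genes had a peak. EIF1AX encodes eIF1A, which holds the scanning ribosome open, and had peaks of 20, 14, 17 and 88 in the direction of the gene. All 4 lay at SCARNA9L, a small Cajal body RNA gene, and the position of the 88 peak was also called under a second gene. EIF5B, whose product joins the ribosomal subunits, had peaks of 5 and 6 in coding exons 16 and 18 of 24. EIF2A, an alternative carrier of initiator tRNA, had 2 peaks of 6 in coding exons 8 and 10 of 14. EIF1, which guards start codon choice, EIF1B and EIF2D were not listed. EIF6, which keeps the large subunit from joining too early and acts in its assembly, had 1 peak of 8 in coding exon 4 of 7.

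eIF2 carries the initiator tRNA as a complex of 3 subunits, and the gene of its GTP-binding subunit was the one with peaks. EIF2S3 had peaks of 17 and 20 in coding exons 3 and 4 of 12, one of 9 in an L1 repeat of intron 11, and 14 and 11 in its 3' UTR. EIF2S1 and EIF2S2, which encode the other subunits, were not listed, nor was any of EIF2B1 to EIF2B5. The kinases that phosphorylate eIF2 under stress all had low peaks. EIF2AK4, the amino acid sensor GCN2, had peaks of 6, 7, 11 and 6 in coding exons 11, 26, 31 and 38 of 39. EIF2AK1, the heme-regulated kinase, had 6, 8 and 6, of which the first lay in coding exon 14 of 15 and the other 2 carried an end-site label of the neighbouring AIMP2. EIF2AK2, the sensor of double-stranded RNA, had 1 peak of 5 in coding exon 5 of 17, and EIF2AK3, the sensor of the endoplasmic reticulum, had 1 peak of 5 in its 3' UTR. The highest peak of these 4 genes had a median of 6.5.

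eIF3, the largest initiation factor, holds the small subunit together with the mRNA and the other factors. Its genes had 30 peaks with a summed height of 296, of which 21 lay in coding exons and 1 in a 3' UTR. The highest peak per gene ran from 6 to 15. EIF3B, a scaffold subunit, had peaks of 13, 13, 9 and 10 in coding exons 6, 8, 10 and 11 of 19 and one of 15 in its 3' UTR. EIF3L had 5 peaks, all in coding exons (3 and 6 to 9 of 11), with heights of 11, 15, 9, 7 and 10. In both genes the peaks were spread over several exons at similar heights, as the plot of peaks along genes shows. EIF3E had 15 and 8 in coding exons 7 and 5 of 13 and 10 close to its start. EIF3H had 8 and 11 in coding exons, 6 in an intron and 7 at its end site.

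EIF3M had 10 in its 5' UTR and 8 and 10 in coding exons 7 and 8 of 11, and EIF3D had 7, 7 and 9 in coding exons 4, 5 and 11 of 15. EIF3F had 11 close to its start and 8 in coding exon 5 of 8. The remaining listed subunits had 1 peak each: EIF3K with 14 in exon 1 of 7, EIF3A with 10 in exon 4 of 22, EIF3I with 10, EIF3G with 9 and EIF3J with 6. The end-site labels of the peaks in EIF3I and EIF3J belong to MTMR9LP and SPG11. EIF3C and EIF3CL, near-identical copies of 1 subunit gene, were both not listed. How reads that match both copies were treated is not given in the sources used here, and its part in their absence was not tested.

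The cap-binding machinery consists of eIF4E (which binds the cap), the scaffold eIF4G and the helicase eIF4A with its cofactors eIF4B and eIF4H. EIF4B had 7 peaks, of 9 in intron 1, 7 and 8 in coding exons 3 and 9 of 15, and 13, 7, 8 and 12 in its 3' UTR. EIF4A3, the eIF4A relative that sits in the exon junction complex, had peaks of 8, 11, 9 and 10 in coding exons 1, 7, 8 and 11 of 12. EIF4A1 and EIF4A2, the initiation helicases themselves, had rows at snoRNA genes alone. EIF4H was not listed.

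Of the scaffolds, EIF4G1 had peaks of 15 and 16 in coding exons 10 and 13 of 33. One of 31 lay beyond them at a start-site label of the neighbouring FAM131A. EIF4G3 had 8 peaks, 1 of height 8 and 7 of height 6, which were spread over its start, 5' UTR, coding exons and introns. This gene is the longest of the class (371 kb). EIF4G2, which supports cap-independent initiation, had the SNORD97 row alone. EIF4E had 2 peaks of 6, in its 3' UTR and in an Alu repeat of intron 2, and its homologue EIF4E2 had 1 of 5 in coding exon 5 of 7. Of the proteins that bind eIF4E, EIF4EBP1 had peaks of 9 in intron 1 and 7 in the 3' UTR. EIF4ENIF1, the nuclear import factor of eIF4E, had 6 in coding exon 17 of 19 and 11 in a U6 snRNA copy in intron 2 of 16. The relatives EIF4E1B, EIF4E3, EIF4EBP2 and EIF4EBP3 were not listed.

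Elongation factor genes included the highest peaks. EEF2 encodes the translocase that moves the ribosome by 1 codon. It had 43, 71 and 127 in its 3' UTR, at positions 3976473, 3976244 and 3976193 of chromosome 19 on hg19 (minus strand), and 37 in coding exon 2 of 15. The peaks of 71 and 127 stood 51 nt apart. EEF1A1, which encodes the main carrier of aminoacyl-tRNA to the ribosome, had 79 in coding exon 3 of 8 and 32 in exon 7, the first starting at position 74229090 of chromosome 6 on the minus strand. EEF1A2, its close paralogue in muscle and brain, was not listed. These 2 genes held the 3 highest peaks of the class outside the small Cajal body RNA SCARNA9L, which was the site of the 88 peak of EIF1AX.

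The eEF1B complex reloads eEF1A with GTP. EEF1G had 5 peaks, of 11 in coding exon 2 of 10, 16 and 9 at a start-site label of MIR6747, 32 at an end-site label of MIR3654 and 10 at its own end site. The nearest start sites of those 4 peaks were miRNA genes. EEF1E1, which encodes a part of the multi-synthetase complex, was grouped with these genes here, and its part in eEF1B was not tested. It had peaks of 45 and 39, and both lay at SCARNA27 and were also called under a second gene. EEF1B2 had SNORA41 and SNORD51 rows alone, and EEF1D was not listed. EIF5A, which relieves stalled ribosomes and despite its name acts in elongation, had 11 in coding exon 2 of 6. It also had 40 and 26 with an end-site label of the neighbouring GPS2. Its paralogues EIF5A2 and EIF5AL1 were not listed. EEF2K, the kinase that switches eEF2 off, had 1 peak of 5 near its start.

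PABPC1, the cytosolic poly(A)-binding protein, had the most peaks of any factor gene, with 9. This ranking holds without the SNORD and SNORA rows set apart, since EEF2 had 16 rows with them. In the direction of the gene they were 13 in the 5' UTR, 12, 15, 14, 24, 14, 19 and 11 in coding exons 1, 2, 2, 3, 4, 11 and 13 of 15, and 20 near the end of the gene. That last peak carried a start-site label of MIR7705. The 9 heights thus ran from 11 to 24, from the first exon to the end of the gene. GSPT1, the GTPase eRF3, had 7 in its 5' UTR and 12 in its 3' UTR. ETF1, the release factor eRF1 that reads stop codons, had 1 peak of 6 in its 3' UTR.

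**Figure D3:**
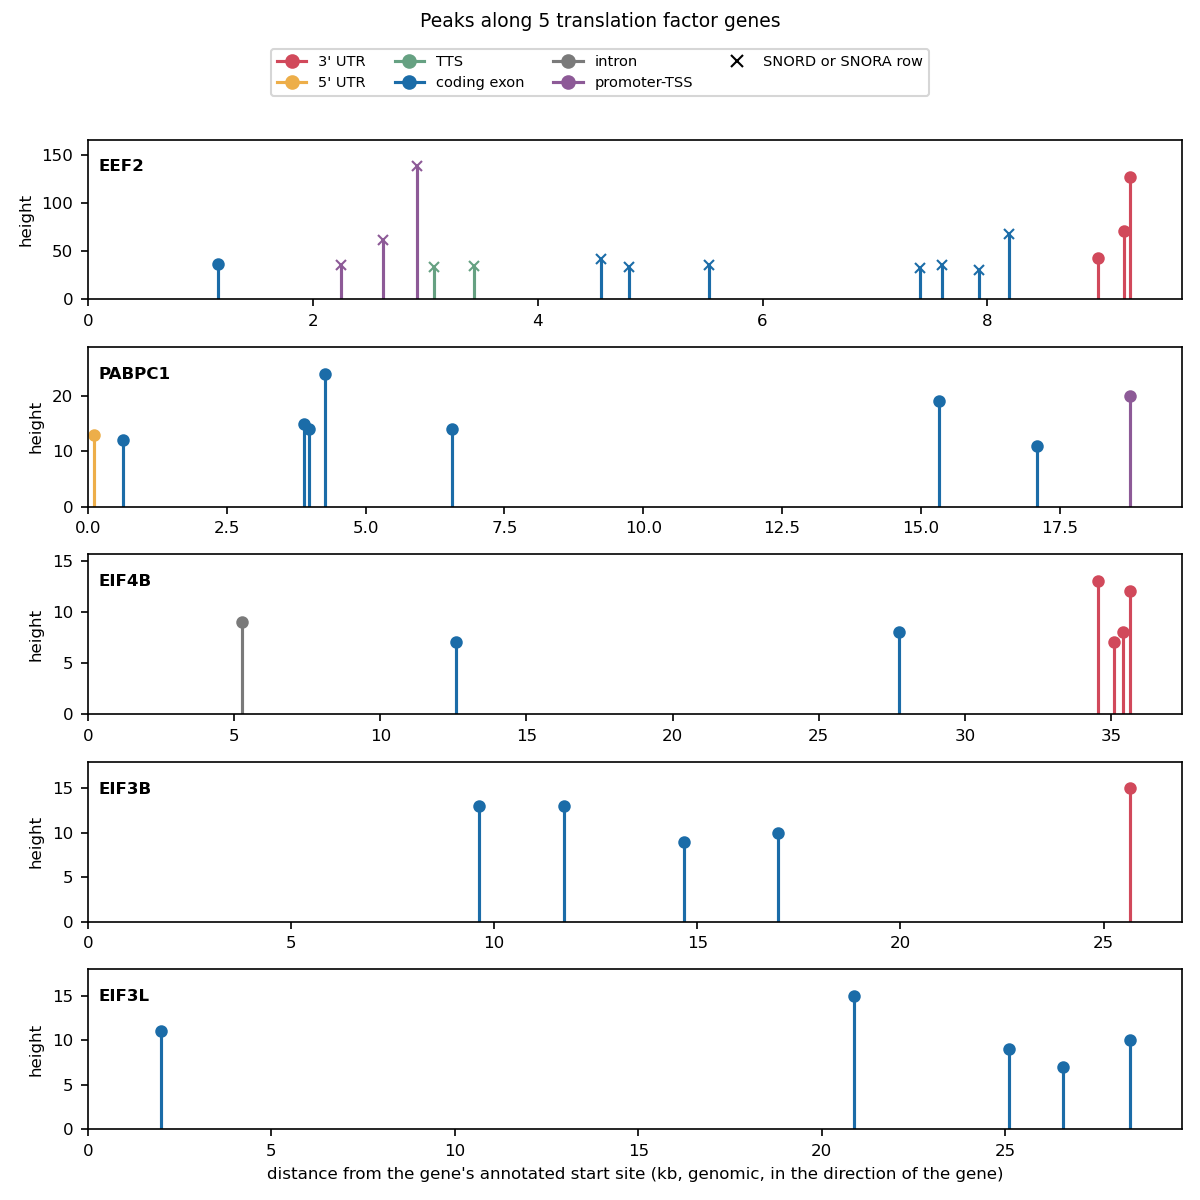
Peak height (y axis, deposited whole number) against the genomic distance from the annotated start site in the direction of the gene (x axis, kb) for EEF2, PABPC1, EIF4B, EIF3B and EIF3L. Points are peaks, crosses are SNORD or SNORA rows set apart, and colours are annotated regions. EEF2 had its highest points near SNORD37 (138) and in the 3' UTR (127), while the peaks of PABPC1 ran from 11 to 24 along the gene.

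By transcript region, coding exons held 59 of the 111 peaks, or 53.2% (interval 43.4 to 62.7), against 48.4% in other protein-coding genes. The interval includes the latter share. All intervals cover counting error only, since peaks of 1 gene are not independent. The 3' UTRs held 15 peaks, or 13.5% (7.77 to 21.3), against 19.1%, and 9 of the 15 lay in EEF2, EIF4B and EIF2S3. Introns held 9 peaks, or 8.11% (3.77 to 14.8), against 18.4%, and 5 of those 9 stood in named repeats. End-site labels were given to 12 peaks (10.8% against 5.0%) and start-site labels to 11 (9.91% against 3.35%). A peak with such a label was not counted in the exon, UTR or intron shares. No test of these differences was made.

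Start-site and end-site labels were mostly those of another gene. Of the 23 peaks that carried one, 16 had the label of a gene other than the called one, among them the small Cajal body RNA and miRNA genes above, and 7 the label of the factor gene. Over all regions, the annotated transcript belonged to another gene for 17 of 111 factor peaks (15.3%), against 6.48% of peaks in other protein-coding genes whose transcript could be named. All of these factor peaks were called in the factor gene, so a label of another gene alone does not place a peak outside it. The strand of the labelled genes was not compared. Without peaks at small Cajal body RNA genes, 105 peaks in 36 genes remained.

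**Figure D4:**
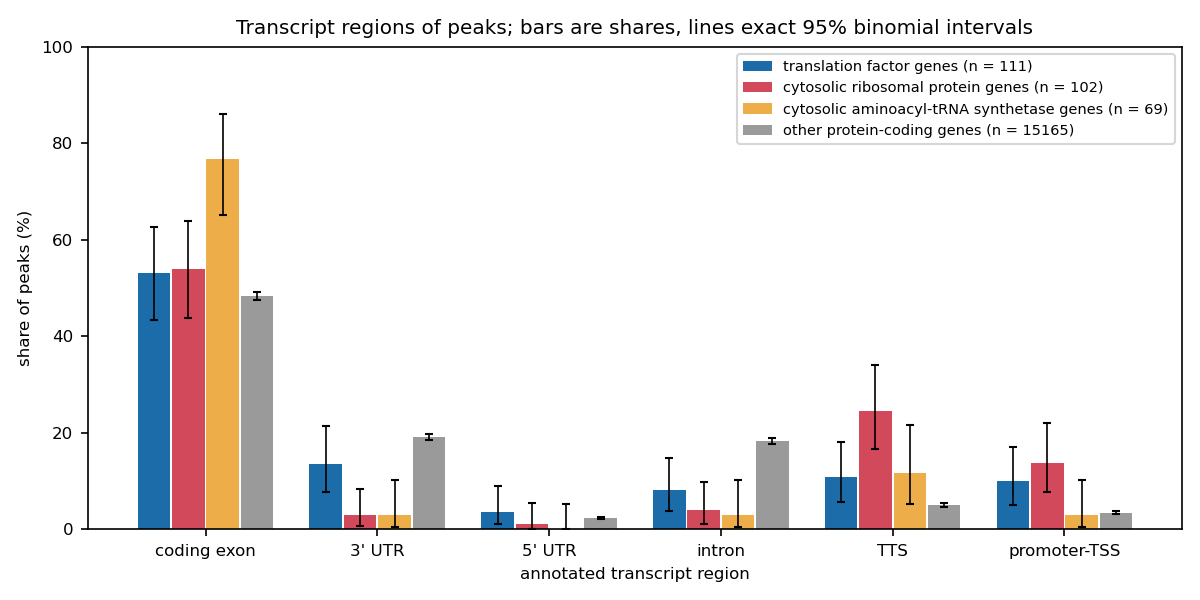
Share of peaks (y axis, percent) in each annotated region (x axis) for translation factor, cytosolic ribosomal protein, cytosolic aminoacyl-tRNA synthetase and other protein-coding genes. Lines are exact 95% binomial intervals and n is the number of peaks. Coding exons held 53.2% of factor peaks, 53.9% of ribosomal protein peaks and 76.8% of synthetase peaks.

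The other components of the translation apparatus gave a like or a higher share of listed genes. Under the same rule, 49 of 90 cytosolic ribosomal protein genes (54.4%, 43.6 to 65.0) and 18 of 20 cytosolic aminoacyl-tRNA synthetase genes (90.0%, 68.3 to 98.8) had a peak. The highest peak per gene had a median of 11 in factor genes, 18 in ribosomal protein genes and 10.5 in synthetase genes. The 3' UTR share was 13.5% of factor peaks, 2.94% of ribosomal protein peaks and 2.90% of synthetase peaks. No test between these classes was made.

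Within the coding sequence, factor peaks lay mostly in internal exons, as did the coding peaks of other protein-coding genes. Of the 59 coding peaks, 56 were in internal exons (94.9%, 85.9 to 98.9), 3 in first exons and 0 in last exons, against 86.5%, 4.20% and 9.32% in other protein-coding genes. The factor interval for internal exons includes the 86.5% of the other genes. Only transcripts with at least 3 exons were used, so 7230 of the 7342 coding peaks of other protein-coding genes entered. Peaks with end-site labels are not counted as coding, and their effect on the last-exon shares was not tested. A count of 0 in 59 allows a share of up to 6.06% (upper bound of the same interval). The median relative position, which rises from the first exon to the last on a scale between 0 and 1, was 0.50 in both classes. Coding peaks were found in 27 of the 38 genes, and 12 genes had peaks in coding exons alone.

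Close to their own annotated start, within 300 nt, 9 factor genes had a peak. The peaks of EIF3F and EIF4G3 lay 87 nt downstream of the start, that of EIF3E 88 nt, EEF2K 98 nt, PABPC1 109 nt and EIF3M 116 nt. Those of EIF3K, GSPT1 and EIF4A3 lay 206, 233 and 250 nt downstream. Their heights ran from 5 to 14. Of these 9 genes, 5 were among the 11 whose start windows were read. The run was found in EIF3F, EIF3K and EIF3M and not in EEF2K and EIF4A3. The distances rest on the hg19 annotation and the windows on GRCh38.p14, and these starts were not matched.

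The height that a listed peak reached depended on the gene. The peak names hold an expected height that is the authors' own, rounded to 0.01 and equal for all peaks of a gene. How it was computed is not given in the sources used here. In 11 factor genes with an expected height of up to 0.05, the lowest listed peak had a median height of 6, and it was 7 in 14 genes above 0.05 and up to 0.2, 9 in 10 genes above 0.2 and up to 1, and 32 in the 3 genes above 1. The same medians in other protein-coding genes were 6, 7, 10 and 20. Over the 38 factor genes, Spearman's rho between expected height and lowest listed height was 0.89, and over the 6104 other genes 0.78, given as a description with no test, since both values are the authors' own for the same genes. The 3 factor genes above 1 were EEF2 (expected height 6.42), EIF4G1 (1.47) and EEF1A1 (1.01). In EIF4A2, EIF4A1 and EIF4G2, with snoRNA rows alone, it was 18.8, 14.7 and 12.1. Above an expected height of 1, the lowest peak listed in any gene was 15 among factor genes and 12 among the others, so that heights of about 10, as along the eIF3 genes, were not listed there.

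**Figure D5:**
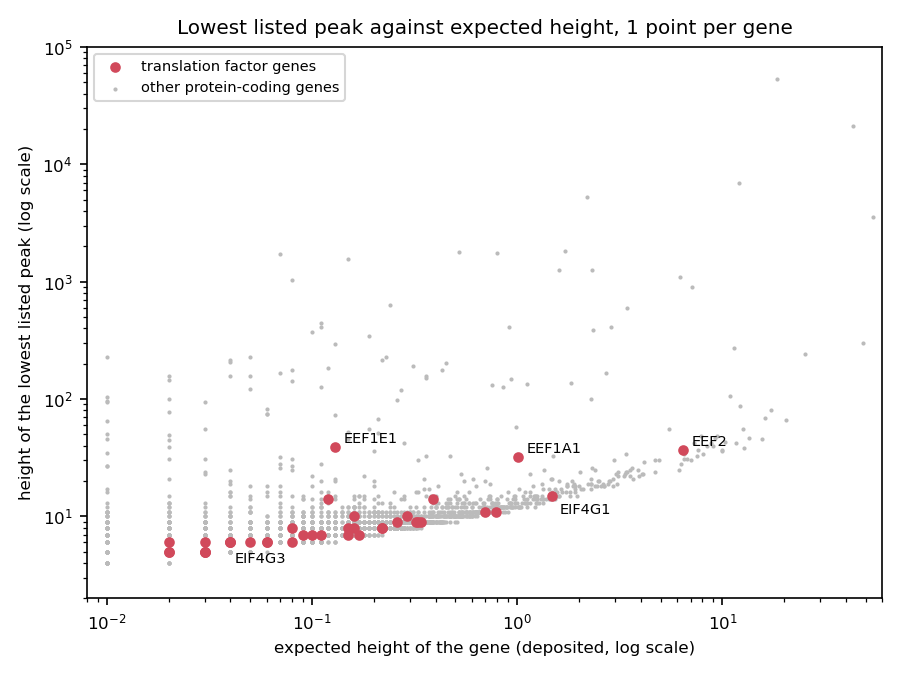
Height of the lowest listed peak of a gene (y axis, log scale) against the expected height deposited for that gene (x axis, log scale) for translation factor genes (red) and other protein-coding genes (grey). The lower edge of the points rises with the expected height, with 5 for EEF2K and 37 for EEF2. The 456 other genes with an expected height of 0 are not drawn.

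Relative to the expected height, the factor peaks had a median ratio of 62.5 (quartiles 36.4 and 150), against 100 (46.2 and 200) over 15016 called peaks of other protein-coding genes with an expected height above 0. The expected height had a median of 0.125 over factor genes and 0.04 over the others, so the rounding to 0.01 weighs more on the latter. The deposited p-value was at its lower limit of 1e-100 for 26 of the 111 factor peaks (23.4%, against 14.5%) and above 0.01 for 10 (9.01%, against 16.3%). The weakest by p were peaks of EIF5B (0.0373), ETF1 (0.0321) and EIF3D (2 peaks at 0.0315). Factor peaks were 1 to 41 nt wide with a median of 10 nt, against 13 nt in other protein-coding genes.

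Neighbouring peaks of a gene were usually far apart on the genome. The gaps are genomic and count any introns in between, so they do not give the spacing on the mRNA. Over 71 pairs of neighbours with no set-apart row between them, the median gap was 2958 nt, 6 gaps were at most 100 nt and 15 at most 500 nt. The 6 closest pairs lay in EEF2, EIF1AX, EEF1E1, EEF1G and PABPC1, where the peaks of 15 and 14 in coding exon 2 were 91 nt apart. Listed factor genes had a median length of 29.5 kb and those without a peak 13.5 kb. For all protein-coding genes the medians were 51.6 kb and 16.5 kb.

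The rows set apart numbered 32, in 8 factor genes and at 14 snoRNA genes, with a summed height of 9151. Of these, 23 carried start-site or end-site labels, and 9 lay in coding exons of the factor gene, with the snoRNA gene merely the nearest start site. EEF2 accounted for 12 of the 32 rows and for 7 of the 9 in coding exons. These had heights of 42, 34, 36, 32, 36, 30 and 68 in exons 8, 9, 10, 12, 12, 13 and 14 of 15, and lay between 1671 and 5299 nt from the start of SNORD37. With them EEF2 had 16 rows, 8 of them in coding exons, and a summed height of 861, against 278 for its 4 members alone. The other 2 coding rows were 16 in exon 23 of 33 of EIF4G1 and 11 in exon 7 of 22 of EIF3A.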

How the data were processed

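Per the labels, cells were irradiated with ultraviolet light and tagged DDX18 was isolated through its FLAG tag. Per the file headers, the deposited peaks were annotated with annotatePeaks.pl (HOMER) on hg19. FastQC 0.10.1 and BWA appear in the submitters' processing notes. Which tool called the peaks, and by what criterion, is not given in the sources used here. The deposited peak height is an unscaled signal in whole numbers. The expected height and p-value were read from the peak names.

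The called gene was matched by Entrez identifier to the RefSeq gene table (6677 of 6695 genes). That table describes GRCh38.p14, so no hg19 position was taken from it. Of 17163 rows, 143 lay in factor genes. Shares carry exact 95% binomial intervals (scipy 1.17.1), and medians order-statistic intervals. The code was tested on simulated data. With 1 group and 1 list, no test between groups was made.

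The members and lists were chosen with earlier results of these data known. All member genes may be named. Every height is given for the 8 genes with the most peaks and the 8 with the highest, and of each other pathway list the 4 genes with the highest peaks are named. MTOR is named beyond this rule, although PPP1R15B of the same list had a higher peak (11 against 9).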

Additional observations from a re-analysis of the deposited data

How the results depend on the processing

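The 7 results (genes with a peak, peaks, coding exon and 3' UTR shares, median highest peak, median peaks per gene, median ratio to the expected height) were recomputed under 8 alternative settings and 3 more chosen after seeing the data. Of 77 values, 71 stayed within 1.5 times the count or within the 95% interval of the value reported. The added alternatives left out peaks at SCARNA genes and in named repeats, left out EEF2, or added back coding exon rows near snoRNA genes. With peaks of height 10 or more, 23 genes and 58 peaks remained, the median highest peak was 15 and the median ratio 44.5. The first 3 of these follow from keeping high peaks alone, and the cause of the lower ratio was not tested. With p-values up to the median of the list, 60 peaks remained. With exon and UTR peaks alone the coding exon share was 74.7%, because the other regions left the denominator. No paired analysis was possible because the list has no value per replicate. For the same reason no replicate could be left out. Without an input, heights were not separated from RNA abundance, and low peaks in genes with a high expected height are not in the list.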

Other observations

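Genes that work beside the factors but lie outside the symbol rule were listed as well. Of 8 genes of ribosome recycling and rescue, 4 had a peak, with the highest at ABCE1 (7), which splits ribosomes after termination, GTPBP1 (7), DENR (6) and HBS1L (5). Of 9 partners and relatives of the poly(A)-binding protein, 4 had a peak. LARP1, which binds TOP mRNAs, had 19 peaks with a highest of 26, of which 10 lay in its 3' UTR and 8 in coding exons. It was followed by LARP4 (18, in an intron), PAIP2 (7) and PABPC1L (6).

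Of 20 genes of translation control, 12 had a peak, led by TPT1 (24), GCN1 (19), ATF4 (15) and DDX3X (15). GCN1, the activator of the kinase GCN2, had 6 peaks, 5 of them in coding exons. MTOR, the kinase of growth signalling, had 11 peaks with a highest of 9, of which 10 were in coding exons. Of 10 mitochondrial translation factors, 3 had a peak, namely TUFM (13), MTIF3 (6) and GFM1 (6). In all protein-coding genes the share with a peak was 30.6%, and no test of these lists was made.

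Of 8 stem cell markers, 6 had a peak, with the highest at LIN28A (36), L1TD1 (28), DNMT3B (23) and CRIPTO (18), while POU5F1 and SOX2 were not listed. Of 7 genes taken as fibroblast markers, 4 had a peak, namely THY1 (39), COL1A1 (17), COL1A2 (16) and PDGFRB (6). COL3A1, VIM and S100A4 had none. Whether these genes are specific to fibroblasts was not tested, and no peak was traced to the feeder cells. A peak is no measure of expression.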
